A study of Rattus norvegicus with 24 samples.

Results

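The striated muscle microRNAs rno-miR-1-3p, rno-miR-133a-3p and rno-miR-206-3p (rno marks the rat, and is left out below) were followed in rat serum. They were taken by name from the deposited tables, and all 3 were found among the 753 miRNA names counted. Serum came from male Wistar Kyoto rats that received their diet from 4 weeks of age for 8 weeks and were then exposed for 4 h on each of 2 days. The groups were normal chow with filtered air (6 rats), normal chow with ozone (6 rats), chow with 6% fish oil by weight and filtered air (6 rats), and the same fish oil diet with ozone (5 rats). Ozone was set to 0.8 ppm and measured at 0.8045 ppm. Of 24 labelled samples 23 were analysed here, all except fish oil ozone replicate 2. Each library is 1 rat, named below by group and replicate (normal air 4, fish oil ozone 5). Rats shared cages, but which rats lived together is not given, so cage could not be modelled. No other oil diet was analysed here, so a fish oil difference cannot be told apart from a difference between these diets in general.

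MicroRNAs are short RNAs that guide silencing complexes to messenger RNAs, mainly through pairing of the seed at their 5′ end. MiR-1 and miR-133a are made from shared transcripts in heart and skeletal muscle, where they act on genes of muscle growth, differentiation and excitability. MiR-206, made with miR-133b, is typical of skeletal muscle, where it favours differentiation and the repair of neuromuscular synapses. Serum holds no muscle cells, so these miRNAs reach it from elsewhere, and damaged muscle is a known source of them. In serum a higher count cannot tell more release from slower clearance or from fewer other miRNAs.

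The mature sequences and their copies are shown because they decide which reads can be told apart. They are RefSeq sequences from the rat build GRCr8, written 5′ to 3′, with the seed (bases 2 to 8) in capitals.
miR-1-3p: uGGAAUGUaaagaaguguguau
miR-1b: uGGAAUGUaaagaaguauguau
miR-206-3p: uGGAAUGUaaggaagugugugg
miR-133a-3p: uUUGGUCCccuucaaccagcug
miR-133b-3p: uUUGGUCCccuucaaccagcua
MiR-1-3p and miR-206-3p share the seed GGAAUGU with miR-1b, and no other mature miRNA in the RefSeq table has it. Counted from 1 at the 5′ end, miR-206-3p differs from miR-1-3p by A11G, A21G and U22G, so 19 of 22 bases are the same. MiR-1b differs from miR-1-3p by G17A alone. MiR-133a-3p has another seed, UUGGUCC, and differs from miR-133b-3p only by G22A, at the last base. All 5 are 22 bases long, so their counts need no correction for length. Whether all 5 enter a library equally well was not measured. The labels do not say how the counting divided reads between these near-identical names. The split between miR-1-3p, miR-1b and miR-206-3p, and between miR-133a-3p and miR-133b-3p, is therefore uncertain.

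On rn5, with positions as the files give them, miR-133a-3p lay on chromosome 18 from 2085471 to 2085493 and miR-1-3p on the same chromosome from 2087924 to 2087946, with 2453 bases between the starts. MiR-206-3p lay on chromosome 9 from 25648264 to 25648286, and miR-133b-3p started 3882 bases further on. MiR-1b lay apart from both, on chromosome 3 from 181345861 to 181345883. In the GRCr8 gene table, the hairpins of miR-1 and miR-133a fall within the span of the protein-coding gene Mib1, a ubiquitin ligase of Notch signalling, and those of miR-206 and miR-133b within the span of 1 long non-coding RNA gene. Whether they are intronic was not read from that table. The 3 hairpins are shown with the counted 3p arm in capitals, because nearly all reads came from that arm.
Mir1: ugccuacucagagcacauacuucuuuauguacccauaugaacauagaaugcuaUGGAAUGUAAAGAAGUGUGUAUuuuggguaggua
Mir133a1: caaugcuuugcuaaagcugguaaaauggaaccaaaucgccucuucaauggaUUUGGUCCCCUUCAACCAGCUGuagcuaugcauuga
Mir206: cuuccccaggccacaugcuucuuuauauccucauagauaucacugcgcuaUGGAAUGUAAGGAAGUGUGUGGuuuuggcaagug
The 3p arms had 767, 307 and 467 counts over all libraries for miR-1, miR-133a and miR-206. The 5p arms had 0 counts for miR-1 and for miR-206 and 26 for miR-133a. The positions of miR-3571 and miR-133c overlap those of miR-1-3p and miR-133a-3p, and both had 0 counts after rounding.

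The 3 miRNAs were a small part of serum miRNA. All miRNAs together gave 23276 to 94264 counts per library, and 3 counts, the upper limit that a count of 0 allows, came to 28.5 to 118.0 CPM. CPM is the count scaled to a common total of miRNA counts, here with edgeR's TMM factors (trimmed mean of M values), and all levels below are in it. MiR-1-3p averaged 33.3 counts per library, miR-206-3p 20.3 and miR-133a-3p 13.3, and they ranked 100, 107 and 115 by level among the 136 miRNAs with enough reads to be tested. The sum of the 3 was 0.00441% to 0.447% of miRNA counts. For comparison, the smooth muscle miRNAs miR-143-3p and miR-145-5p made up 8.23% to 35.8%, and the 3 liver miRNAs miR-122-5p, miR-192-5p and miR-194-5p 3.41% to 18.03%. The 4 erythrocyte miRNAs in the table of the 5 listed held 0.959% to 3.32%.

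MiR-1-3p, the most abundant of the 3, ranged from 0 to 1899.9 CPM. On the normal diet in air its lowest, median and highest levels were 0, 363.7 and 1899.9 CPM, and in ozone 182.1, 406.1 and 1482.7 CPM. On fish oil in air they were 111.6, 659.6 and 1642.8 CPM. The 5 rats on fish oil in ozone had 341.5, 755.9, 521.8, 1528.9 and 764.8 CPM. Every group thus reached from low to high levels, and each pair of groups overlapped. The library at 0 was normal air 4, in which 3 counts would be 81.3 CPM or 0.00661% of miRNA. Normal air averaged 561.7 ± 688.1 CPM and normal ozone 666.0 ± 552.4 CPM (SD, n = 6 each). Rats fed fish oil averaged 706.5 ± 580.5 in air (SD, n = 6) and 782.6 ± 452.9 CPM in ozone (SD, n = 5). This order of means, normal air lowest and fish oil ozone highest, separated no neighbours beyond their spread.

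MiR-206-3p, the one most typical of skeletal muscle, had a similar reach. Its lowest, median and highest levels were 27.1, 233.8 and 1136.0 CPM in normal air, 60.9, 344.8 and 899.1 CPM in normal ozone, and 80.3, 222.4 and 1131.7 CPM in fish oil air. The 5 fish oil ozone rats had 527.8, 131.5, 249.6, 509.6 and 611.9 CPM. All 4 groups overlapped here too. The lowest values in normal air and normal ozone rest on 1 and 2 counts, below the limit of 3. Means were 364.2 ± 405.0, 440.4 ± 372.7 and 350.3 ± 389.1 CPM (SD, n = 6 each) and 406.1 ± 204.8 CPM (n = 5), in the same order of groups. Neighbours in their order, with fish oil air lowest and normal ozone highest, differed by less than their SD.

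MiR-133a-3p, which is made together with miR-1, was the least abundant. Its lowest, median and highest levels were 27.1, 121.9 and 665.9 CPM in normal air, 30.5, 275.1 and 536.3 CPM in normal ozone, and 110.1, 275.2 and 1022.2 CPM in fish oil air. The fish oil ozone rats had 310.5, 164.3, 317.6, 78.4 and 336.5 CPM. The groups again overlapped, and the lowest values in normal air, normal ozone and fish oil ozone rest on 1 or 2 counts, below the limit of 3. Means were 202.1 ± 233.0, 266.3 ± 191.5, 368.6 ± 327.9 (SD, n = 6 each) and 241.5 ± 114.2 CPM (n = 5).

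**Figure D1:**
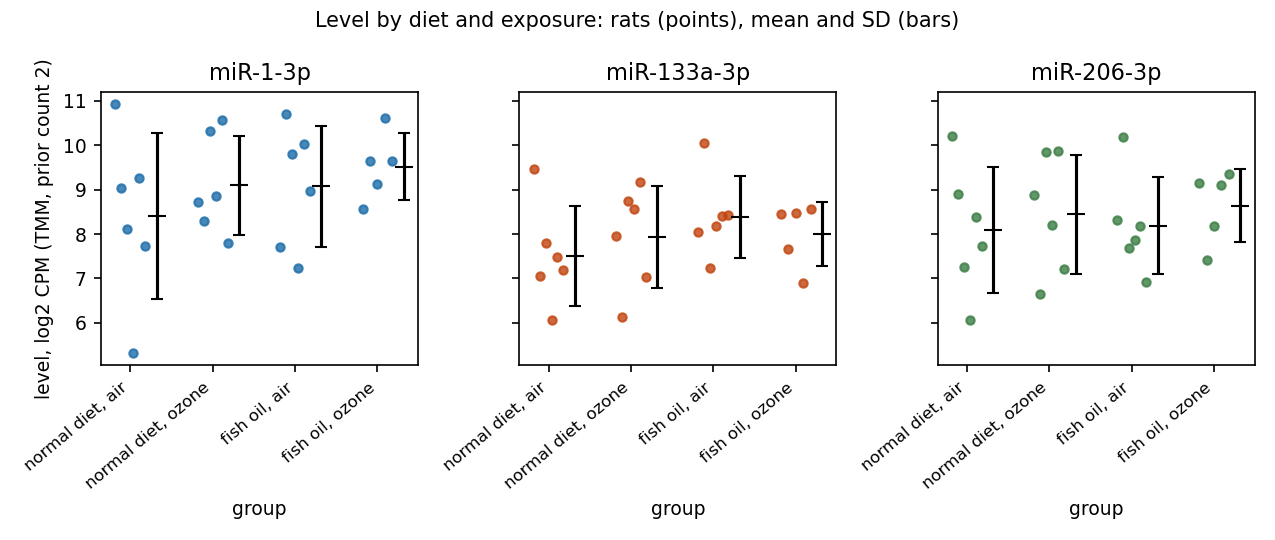
Level of each miRNA in log2 CPM (y axis) by diet and exposure (x axis). Points are rats, and the bar beside them is the mean with the SD (n = 6, or 5 for fish oil with ozone). In all 3 panels the 4 groups cover overlapping ranges.

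None of the 3 miRNAs passed the test for diet or for ozone. The test was the edgeR quasi-likelihood F test over all 136 miRNAs with Benjamini-Hochberg adjustment at 0.05. With both exposures averaged, 36.8% of the 136 miRNAs were called for fish oil (19.9% higher, 16.9% lower), and 0 of the 3 muscle ones were. The split of 27 higher and 23 lower became 29 and 13 with total counts. Their log2 differences from the normal diet were +0.25 for miR-1-3p (SE 0.53, edgeR adjusted p = 0.757), +0.33 for miR-133a-3p (SE 0.42, edgeR adjusted p = 0.567) and −0.16 for miR-206-3p (SE 0.51, edgeR adjusted p = 0.833). The median of the 3 was +0.25, beside +0.06 over all miRNAs tested. The 95% confidence intervals ran from −0.85 to +1.34, −0.53 to +1.20 and −1.20 to +0.89. A doubling (a log2 difference of 1) therefore lay inside the intervals of miR-1-3p and miR-133a-3p, and a halving (−1) inside that of miR-206-3p.

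Ozone, averaged over diets, called 0.735% of the miRNAs and again 0 of the 3. The log2 differences were +0.22 for miR-1-3p (95% confidence interval −0.88 to +1.31), −0.03 for miR-133a-3p (−0.92 to +0.86) and +0.30 for miR-206-3p (−0.75 to +1.35). Their edgeR adjusted p lay at 0.974, 0.984 and 0.913. The median of the 3 was +0.22, beside −0.02 over all miRNAs tested.

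Within single exposures and diets the picture was the same. Under air, fish oil called 5.88% of all miRNAs (0.735% higher, 5.15% lower) and 0 of the 3. Its split of 1 higher and 7 lower turned with the scaling, to 11 and 3 with total counts, 7 and 8 with DESeq2 and 1 and 37 with the read total implied by the authors' RPM. The difference nearest to the threshold among the 3 was that of miR-133a-3p, at +0.83 (95% confidence interval −0.36 to +2.01, edgeR adjusted p = 0.338). MiR-1-3p stood at +0.31 (edgeR adjusted p = 0.820) and miR-206-3p at −0.14 (edgeR adjusted p = 0.914). Under ozone, fish oil called 22.8% of all miRNAs (12.5% higher, 10.3% lower) and 0 of the 3. The split of 17 higher and 14 lower became 0 and 46 with that read total. The 3 stood at +0.18, −0.16 and −0.18 for miR-1-3p, miR-133a-3p and miR-206-3p, each with an edgeR adjusted p of 0.886. On the normal diet, ozone called 0% of all miRNAs, and the 3 stood at +0.28, +0.46 and +0.32 (edgeR adjusted p = 0.935 each). On fish oil, ozone also called 0% of all miRNAs, and the 3 stood at +0.15, −0.53 and +0.28. The interaction of diet and ozone called 0% and stood at −0.13, −0.99 and −0.04. At an unadjusted p below 0.05, the 3 comparisons with no call had 4, 10 and 6 miRNAs in edgeR, DESeq2 called 1, 0 and 0, and limma voom 0 in each (ozone on the normal diet, ozone on fish oil, interaction). None of the 3 muscle miRNAs had an unadjusted p below 0.05 in any of the 7 comparisons, in edgeR, DESeq2 or limma voom.

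**Figure D2:**
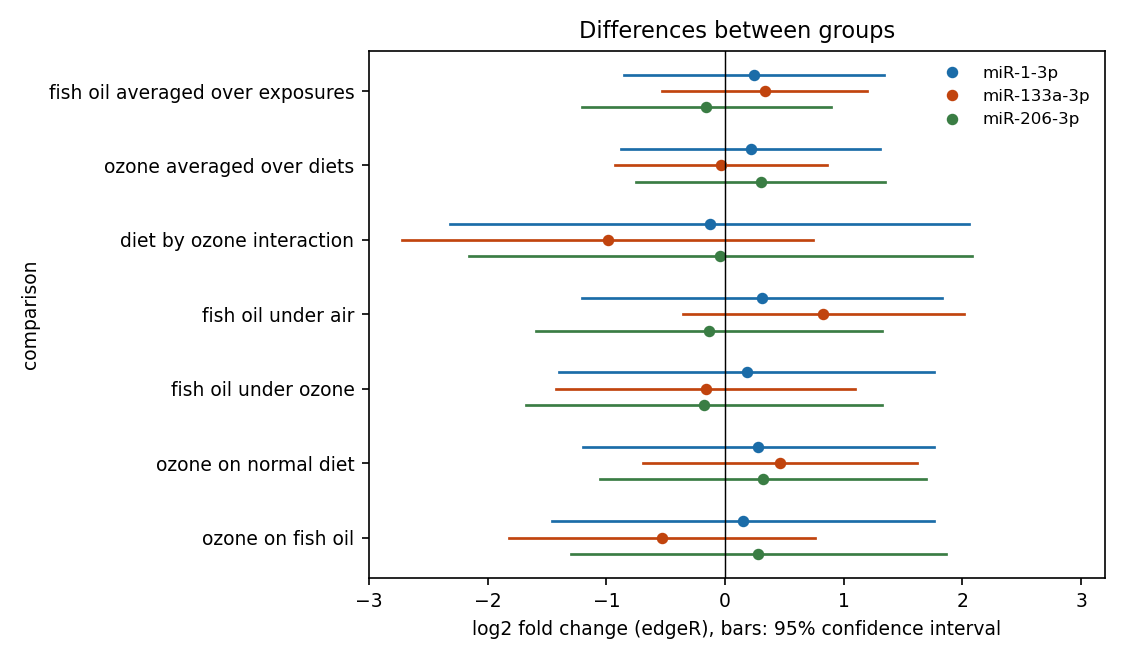
Log2 fold change (x axis) of the 3 miRNAs in each of the 7 comparisons (y axis), from the edgeR fit. Points are estimates and bars are 95% confidence intervals, and every bar crosses 0, from the narrow averages to the wide interaction.

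Leaving out a single rat turned the direction of some of these differences. Fish oil under air gave +1.23 for miR-1-3p when normal air 1 was left out and −0.10 when fish oil air 2 was. For miR-206-3p the same omissions gave +0.63 and −0.94, whereas miR-133a-3p kept its direction, at +1.63 and +0.26. With each library left out in turn, the lowest edgeR adjusted p of any of the 3 in any comparison was 0.108. With ozone on the normal diet, miR-1-3p went from +1.22 without normal air 1 to −0.10 without normal ozone 5.

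The direction also turned with the scale. Dividing the deposited counts by the RPM gives the total that the authors scaled to, called the implied read total. The miRNA counts were 0.374% to 1.20% of it in rats fed fish oil and 0.848% to 2.41% on the normal diet. Scaled to that total, the median over all miRNAs for fish oil, exposures averaged, moved from +0.06 to −0.87 and 52.2% were called, 51.5% lower. MiR-1-3p then stood at −0.68 and miR-133a-3p at −0.69, and neither passed (edgeR adjusted p = 0.264 and 0.225). MiR-206-3p fell by 1.24 on the log2 scale (95% confidence interval −2.22 to −0.26, edgeR adjusted p = 0.0287). Relative to the median of all miRNAs, these were +0.19, +0.18 and −0.37. With 52.2% of all miRNAs called, a call is near the background. With limma on the authors' own RPM, which has the same total, miR-206-3p did not pass (−0.59, limma adjusted p = 0.172, pseudocount 1).

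The variation of the 3 miRNAs lay between rats of the same group. MiR-1-3p had the largest SD within groups of all 136 miRNAs tested, at 1.36 log2 CPM, miR-206-3p ranked 3 at 1.21 and miR-133a-3p ranked 6 at 1.01. The median over all tested was 0.53. The log2 CPM of the 0 count of miR-1-3p in normal air 4 is set by the prior count of 2, so its SD depends in part on that setting. The 20 miRNAs nearest in mean count had median SDs of 0.54, 0.60 and 0.71. The biological coefficient of variation of edgeR, which leaves out counting error, was 0.852, 0.794 and 0.627, ranks 2, 3 and 5, beside a median of 0.348. Counting error at their mean counts would be a coefficient of variation of 0.173, 0.222 and 0.274. These are descriptions with no test.

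**Figure D3:**
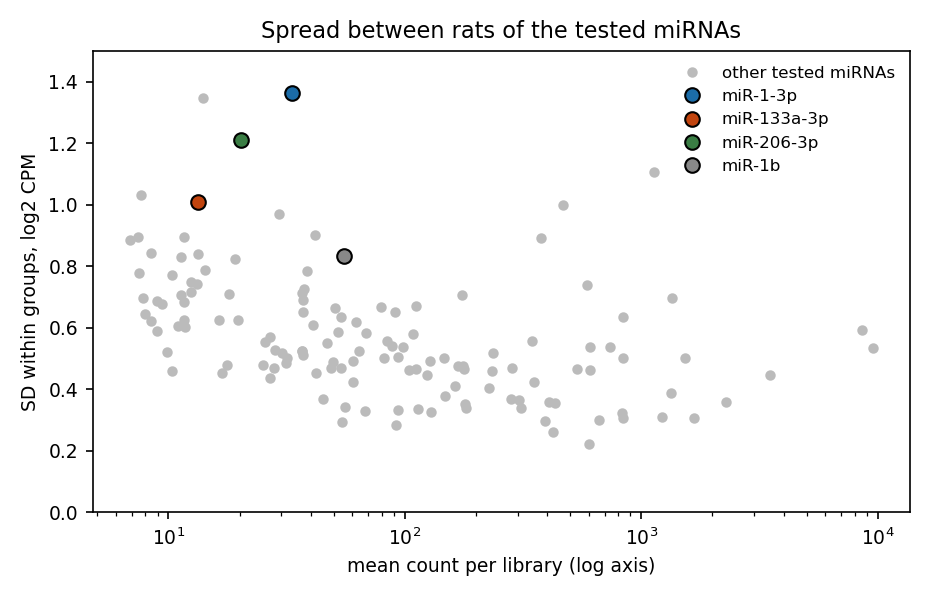
SD within groups in log2 CPM (y axis) against mean count per library (x axis, log axis) for the 136 miRNAs tested. The 3 muscle miRNAs (coloured) stand at 1.36, 1.21 and 1.01, above most miRNAs of like count, and miR-1b at 0.83.

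Some rats were high or low in all 3. Normal air 1 had the highest miR-1-3p and miR-206-3p and ranked 2 for miR-133a-3p, with 97, 58 and 34 counts. Fish oil air 2 had the highest miR-133a-3p and ranked 2 for the others, with 45, 31 and 28 counts. Normal ozone 5 and normal ozone 3 came next in miR-133a-3p and miR-206-3p, at ranks 3 and 4, and stood at ranks 4 and 5 for miR-1-3p. At the other end, normal air 4 ranked last for each, with 0, 1 and 1 counts among 45372. In TMM-scaled CPM, both the highest and the lowest rat for miR-1-3p and miR-206-3p were thus controls on normal chow and air. The highest rat changed with the scale. As a share of miRNA counts, fish oil air 2 was highest for both (0.1933% and 0.1332%, normal air 1 0.1701% and 0.1017%). By the authors' RPM, normal ozone 5 was highest for both (32.92 and 19.96, normal air 1 19.71 and 11.79). Normal air 4 was the lowest on each of these scales. Other rats did not have similar CPM ranks in all 3, most clearly fish oil ozone 5, at rank 3 for miR-1-3p but 21 for miR-133a-3p. For miR-1-3p, miR-133a-3p and miR-206-3p, fish oil air 3 ranked 7, 17 and 17, and fish oil air 4 ranked 22, 11 and 15.

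**Figure D4:**
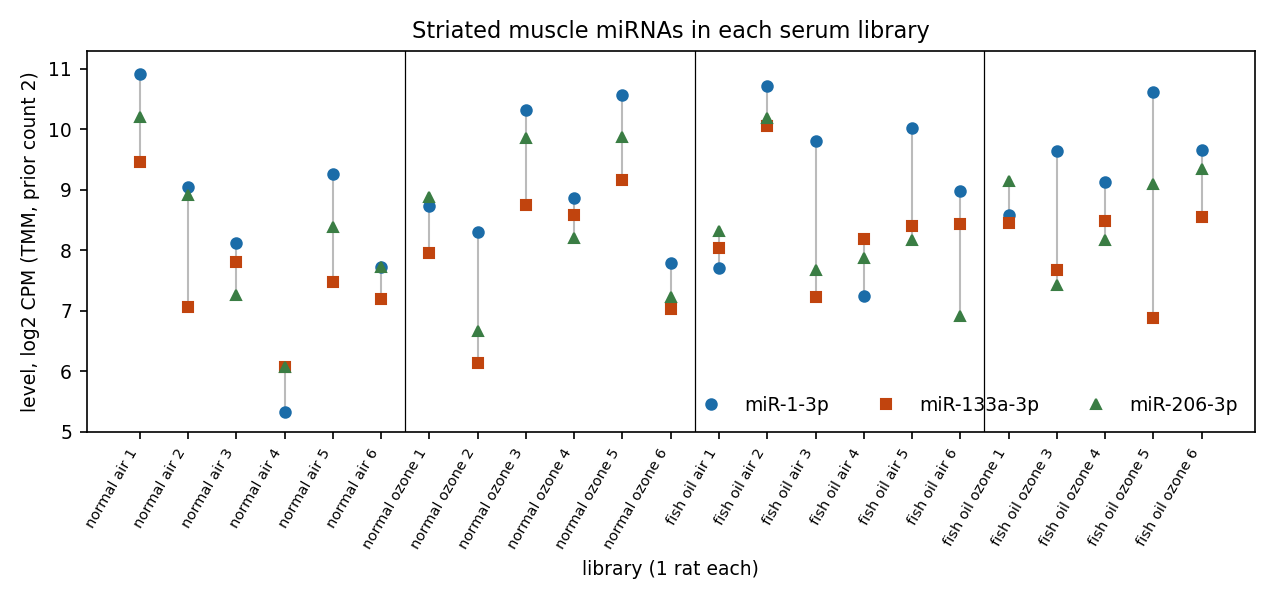
Level in log2 CPM (y axis) of the 3 miRNAs in each of the 23 libraries (x axis), with groups separated by lines and a grey stem spanning the 3 values of a rat. Normal air 1, fish oil air 2, normal ozone 3 and normal ozone 5 are high in all 3, and normal air 4 is lowest in each.

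Across rats, with group means removed, the 3 moved together. MiR-133a-3p and miR-206-3p, which differ in seed and lie on different chromosomes, had a Pearson r of 0.768 over 23 libraries (permutation p = 0.00032, adjusted p = 0.00096 over 3 pairs) and a Spearman rho of 0.635 (permutation p = 0.00361, adjusted p = 0.00541). MiR-1-3p and miR-206-3p had an r of 0.738 (permutation p = 0.00067, adjusted p = 0.001) and a rho of 0.658 (permutation p = 0.00219, adjusted p = 0.00541). MiR-1-3p and miR-133a-3p, the neighbours on chromosome 18, had an r of 0.590 (permutation p = 0.00955, adjusted p = 0.00955) and a rho of 0.501 (permutation p = 0.0246, adjusted p = 0.0246). Without the 2 libraries farthest from the median of the first miRNA, r was 0.632, 0.599 and 0.380 in the same order of pairs, with adjusted permutation p of 0.0195, 0.0195 and 0.152. Normal air 4 had 0 counts of miR-1-3p and 1 of miR-133a-3p, so its log2 CPM depends in part on the prior count of 2. Without normal air 1 and normal air 4, the relation of miR-1-3p with miR-133a-3p on this scale thus stayed positive but did not pass. On the log2 of the authors' RPM the 3 values of r were 0.798, 0.785 and 0.711, and without those rats the last was 0.603 (adjusted permutation p = 0.0146). The values of a pair come from 1 library each and share its scaling. For miR-1-3p and miR-206-3p the division of reads between their names is also uncertain, and its part in their r was not tested.

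**Figure D5:**
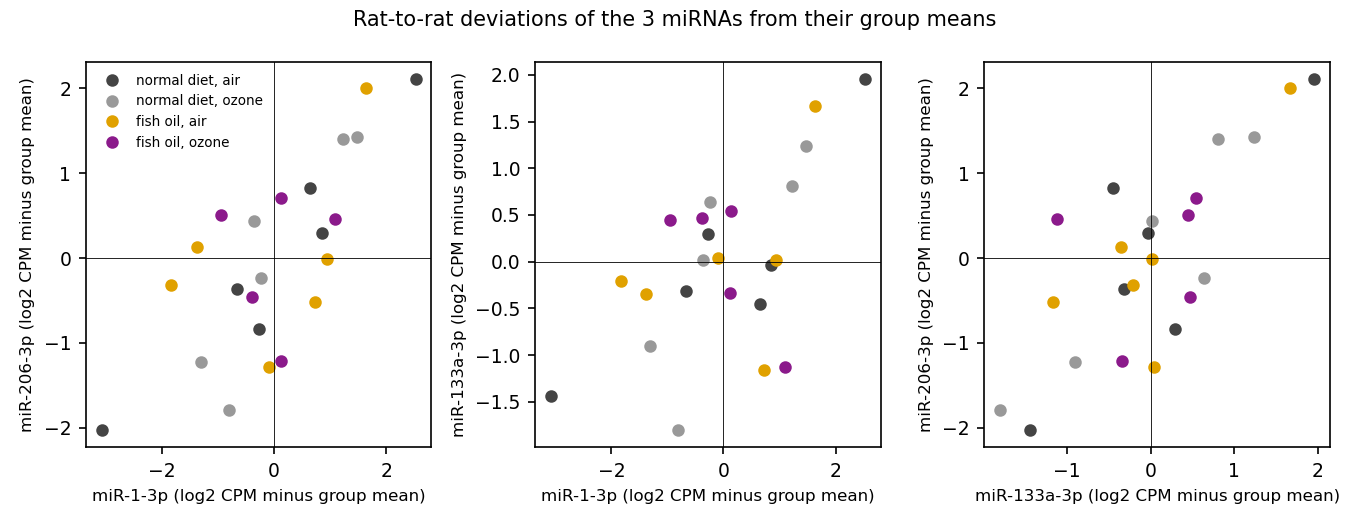
Deviation of each rat from its group mean in log2 CPM, for 1 miRNA on the x axis and another on the y axis, coloured by group (23 points per panel). The points run from lower left to upper right, with r of 0.738, 0.590 and 0.768 from left to right.

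The miRNA most like each of the 3 was, outside the 3 themselves, miR-1b in every case, by Pearson r of log2 CPM over 23 libraries with group means removed. Its r was 0.858 with miR-1-3p, 0.755 with miR-206-3p and 0.657 with miR-133a-3p. MiR-1b differs from miR-1-3p by 1 base and from miR-206-3p by 4, and how reads were divided between these names is uncertain. The part of that division in these r was not tested. For miR-133a-3p and miR-206-3p the top 3 of the 135 other tested miRNAs were the other muscle miRNAs, miR-1b included. For miR-1-3p, miR-16-5p of the erythrocyte list (0.626) ranked 3, above miR-133a-3p (0.590, rank 4), and miR-140-5p (0.524) ranked 5. This order turned on the log2 of the authors' RPM, where miR-133a-3p ranked 3 (0.711) and miR-16-5p ranked 6 (0.628). In log2 CPM, next after the muscle miRNAs came miR-328a-3p (0.515) and miR-92a-3p (0.511) for miR-206-3p, and miR-1843b-5p (0.494) and miR-92b-3p (0.463) for miR-133a-3p. Markers of other sources were followed in the same way, with r given for miR-1-3p, miR-133a-3p and miR-206-3p in turn. The 4 erythrocyte miRNAs tested ran from 0.08 to 0.63, −0.27 to 0.15 and −0.24 to 0.20. Among them miR-16-5p and miR-144-3p (0.63 and 0.50) were the highest with miR-1-3p, and miR-144-5p was the lowest with each of the 3. The 3 leukocyte and platelet miRNAs tested, of 4 listed, ran from 0.02 to 0.38, −0.01 to 0.37 and −0.21 to 0.36. The 3 liver miRNAs ran from −0.35 to 0.19, −0.57 to −0.11 and −0.26 to −0.03, with miR-122-5p lowest and miR-194-5p highest each time. Both smooth muscle miRNAs were negative with all 3, from −0.58 to −0.55, −0.44 to −0.32 and −0.34 to −0.32. On the log2 of the authors' RPM most of these r were higher. Erythrocyte miRNAs were then at 0.39 to 0.64, 0.18 to 0.49 and 0.03 to 0.32. Leukocyte and platelet miRNAs were at 0.39 to 0.57, 0.41 to 0.55 and 0.18 to 0.36. Liver miRNAs were at −0.19 to 0.41, −0.38 to 0.30 and −0.29 to 0.19. Smooth muscle miRNAs were at −0.18 to −0.11, −0.08 to 0.03 and −0.22 to −0.21. The part of these sources in the levels of the 3 was not tested.

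The high rats included both ends of the depth range. The 4 rats high in all 3 had miRNA totals of 57025, 23276, 94264 and 58504 counts (normal air 1, fish oil air 2, normal ozone 3 and 5). Fish oil air 2 was the shallowest library and normal ozone 3 the deepest. Their erythrocyte index, the log2 CPM of miR-451-5p minus that of miR-23a-3p, which rises when red cells break, was −1.54, −1.86, −1.38 and −2.67. Normal air 4, the lowest, had −2.17. The index of all libraries ran from −4.11 to −0.57. The part of depth and red cells in the high and low values was not tested.

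MiR-1b was added here because of its sequence and was chosen after its values were seen. It had more reads than miR-1-3p, with 1272 against 767 counts in all, and was ahead in 22 of 23 rats, normal air 1 being the exception. It averaged 674.8 ± 506.4 CPM in normal air and 1093.4 ± 832.2 CPM in normal ozone (SD, n = 6 each). Fish oil air averaged 1355.9 ± 650.2 CPM (SD, n = 6) and fish oil ozone 1532.9 ± 459.1 CPM (SD, n = 5). Fish oil averaged over exposures gave +0.73 for it (SE 0.32, edgeR adjusted p = 0.0713), which did not pass. In normal air 4, where miR-1-3p had 0 counts, it had 9.

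The ratios between the 3 within a library do not depend on scaling, whereas ratios of summed counts give libraries with more counts more weight. In counts summed over all rats, miR-1-3p had 1.64 counts for each count of miR-206-3p and 2.50 for each count of miR-133a-3p. It outnumbered miR-206-3p in 17 of 23 libraries and miR-133a-3p in 20. From the sums of each group, the ratio of miR-1-3p to miR-206-3p was 1.49 in normal air, 1.47 in normal ozone, 2.25 in fish oil air and 1.86 in fish oil ozone. The log2 ratio per rat, with 0.5 added to each count, was 0.21 ± 0.98, 0.73 ± 0.68, 0.96 ± 1.46 and 0.93 ± 1.14 (SD), so the groups differed by less than their spread. MiR-206-3p outnumbered miR-133a-3p in sum in 3 groups, but in fish oil air the ratio was 0.863, with 69 against 80 counts.

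Apart from miR-1b, other miRNAs of striated muscle were few. Of the 15 names in the striated muscle list, which leaves out miR-1b, 7 had a count in any library. Enough reads to be tested were found for 3 of them, miR-1-3p, miR-133a-3p and miR-206-3p. In each of the 7 comparisons 0 of these 3 were called in either direction. MiR-133b-3p, made with miR-206, had 79 counts in 19 libraries, of which 41 were in normal ozone 3 and normal ozone 4 (20 and 21). In normal ozone 4 it was level with miR-133a-3p (20 counts), whereas in normal ozone 5 it had 3 against 34. MiR-499-5p, carried in a myosin gene of heart and slow muscle, had 37 counts in 17 libraries and at most 6. It reached 6 in normal air 4 and normal ozone 6, which were both low in the other 3. Of the heart miRNAs carried in myosin heavy chain genes, miR-208a-3p had 0 counts in all libraries, and miR-208b-3p had 1 count, in normal ozone 3. A count of 0 allows up to 3 counts, or 0.00318% to 0.0129% of the miRNA counts of a library.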

How the data were processed

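Small RNA from 100 µl of serum (10 ng into each library, 50 cycles from 1 end) was sequenced. The authors deposited expected counts per mature miRNA locus, of which 50 of 832 loci hold fractions, and RPM values with an offset of 0.0001. The submitters' processing notes name Bowtie 1.0.0, Partek, bcl2fastq and the build rn5. Annotation, filters and the handling of reads with several matching loci were not given in the sources used here. Dividing counts by RPM gave the implied read total, 2243915 to 7729936 per library, and the RPM values match the counts to within 0.0401 reads.

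Loci of 1 name were summed and rounded. The 136 names passing filterByExpr (minimum count 10, minimum total 15) hold 99.3% of the counts. edgeR 4.0.16 in R 4.3.3 fitted all 4 groups with TMM scaling (glmQLFit, robust, two-sided), and 7 contrasts were tested. Log2 CPM used a prior count of 2. Correlations used 100000 two-sided permutations of libraries within groups. Alternatives were DESeq2 1.42.0, limma 3.58.1 (voom, and log2 of RPM with a pseudocount of 1 or 0.1), other scalings, no filter, an erythrocyte covariate and leaving out each library. The edgeR fit was also run on counts simulated from its own model, which checks the code and cannot tell which scaling is right. Counting both miR-1 names together, and both miR-133 names, was added after seeing the data. The named miRNAs are the 3 members, the muscle list, the 3 miRNAs most correlated with each member, and markers of erythrocytes, smooth muscle, liver, and leukocytes and platelets. The erythrocyte index uses miR-451-5p and miR-23a-3p. MiR-1b was added for its sequence after its values were seen. Members and lists were chosen with earlier results of these data known. Libraries are separate rats, and the confidence intervals are from the edgeR fit and include the spread between rats. The limit of 3 counts covers counting error only, since PCR reads without molecular identifiers are not independent molecules.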

Additional observations from a re-analysis of the deposited data

How the results depend on the processing

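No paired analysis was possible because the labels give each rat its own animal number and no number pairs rats across groups. Of 214 alternative values of the 3 miRNAs in the 7 comparisons, 1 passed the threshold (miR-206-3p, implied read total, −1.24) and 25 had the other sign. Leaving out a library gave 483 values, 0 past the threshold and 44 of the other sign. Counts of the 3 were 0 to 131 per library, so values at 1 or 2 counts lie under the limit that a count of 0 allows. In none of these cases was the cause tested.

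For fish oil averaged over exposures, the implied read total gave −0.68 for miR-1-3p and −0.69 for miR-133a-3p, and limma on RPM gave −0.27 and −0.27 with a pseudocount of 1 and −0.14 and −0.22 with 0.1. Without single libraries miR-206-3p ran from −0.56 to 0.19. Under air, miR-1-3p was −0.39 with the implied read total and −0.12 with RPM (pseudocount 1), miR-133a-3p −0.19 with the implied read total, and miR-206-3p 0.11 with total count scaling. Without single libraries miR-1-3p ran from −0.10 to 1.23 and miR-206-3p from −0.94 to 0.63. Under ozone, miR-1-3p was −0.96 with the implied read total, −0.41 and −0.44 with RPM (pseudocounts 1 and 0.1) and −0.17 with the erythrocyte index as covariate. With voom miR-133a-3p was 0.0318 and miR-206-3p 0.0134. Without single libraries the ranges were −0.14 to 0.56, −0.36 to 0.13 and −0.41 to 0.15 for miR-1-3p, miR-133a-3p and miR-206-3p.

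For ozone averaged over diets, miR-133a-3p was 0.30 with the implied read total, 0.20 and 0.26 with RPM (pseudocounts 1 and 0.1), 0.0182 without a filter, 0.22 with voom, 0.0198 with the erythrocyte index and 0.11 counted with miR-133b-3p. Without single libraries it ran from −0.17 to 0.38. For ozone on the normal diet miR-1-3p ran from −0.10 to 1.22. For ozone on fish oil it was −0.0806 with total count scaling and ran from −0.21 to 0.57, with −0.70 to 0.0361 for miR-133a-3p and −0.0200 to 1.08 for miR-206-3p. In the interaction miR-206-3p was 0.0939 with voom and ran from −0.88 to 0.76, and miR-1-3p from −1.17 to 0.28.

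The number of all miRNAs called by fish oil under air was 8, against 15 with DESeq2, 14 with total count scaling, 38 with the implied read total, 32 and 31 with RPM (pseudocounts 1 and 0.1) and 5 with voom, and 3 to 15 without single libraries. Under ozone it was 31, against 48 and 49 with RPM and 12 to 34 without single libraries, the 12 without fish oil ozone 3. For ozone averaged over diets it was 1, and 0 with total count scaling, the implied read total, RPM at either pseudocount, library size without the 5 most abundant miRNAs, voom or the erythrocyte index, and 0 to 1 without single libraries. For ozone on the normal diet it was 0, against 1 with DESeq2 and 0 to 1 without single libraries. Counted together with miR-1b, miR-1-3p kept its sign and side of the threshold in all 7 comparisons. The correlation of miR-1-3p with miR-133a-3p was 0.38 (adjusted permutation p = 0.152) without normal air 1 and normal air 4.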

Other observations

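No value of the 3 miRNAs stood apart from its own group by Dixon's criterion on log2 CPM. In 12 sets (3 miRNAs in 4 groups of 5 or 6 rats) 0 were past the critical value at either end. For miR-1-3p in normal air this says nothing of the 0 count in normal air 4, whose log2 CPM is set by the prior count of 2. The lowest values of miR-133a-3p and miR-206-3p in normal air and normal ozone rest on 1 or 2 counts. So does that of miR-133a-3p in fish oil ozone. Their log2 CPM also depends in part on the prior count, which limits the criterion at those low ends.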
